A study of Mus musculus with 12 samples.

Results

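Mouse melanoma cells labelled as a Cas9 knockout of Gli2 were set beside Cas9 cells with a non-targeted control, as 3 libraries of each taken from a series of 12 RNA-seq libraries in 4 groups. The members were chosen by label alone: every library of the genotypes Cas9-Gli2KO and Cas9-NTC. Both groups carry the same cell line name, that of a melanoma line with an activated BRAF kinase. Both grew in DMEM with 10% FBS, puromycin at 1 ug/mL and blasticidin at 10 ug/mL, so drug selection is shared by the knockout and its control. The labels give no strain, passage, guide or edited exon, and they do not say whether the knockout is a clone or a pool. Separate cultures are not stated for the libraries within a group, so a p-value reflects only how these libraries vary, and that variation may be technical. Values are FPKM, that is, fragments scaled for gene length and sequencing depth, and depth recovered from them ran from 22813600 to 23523600 reads in Cas9-Gli2KO and from 16962300 to 25983900 in Cas9-NTC.

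GLI2 is the main transcriptional activator at the end of the Hedgehog pathway. A Hedgehog ligand binds the receptor PTCH1, which then ceases to hold back the membrane protein SMO, and SMO signalling releases GLI2 and GLI3 from the inhibitor SUFU. Active GLI proteins switch on Gli1 and Ptch1, whose RNA is commonly read as the output of the pathway. In melanoma, GLI2 has been linked to invasive and mesenchymal-like states and to signalling by TGF-beta.

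The lineage markers were uneven in these cells. Mitf, the melanocyte master regulator, lay between 2.10 and 2.47 FPKM in Cas9-Gli2KO and between 2.63 and 2.71 FPKM in Cas9-NTC, and the neural crest factor Pax3 lay between 2.60 and 3.52 FPKM and between 2.63 and 3.24 FPKM. Sox10, a defining factor of the melanocyte lineage, reached at most 0.0139 FPKM in Cas9-Gli2KO and 0.058 FPKM in Cas9-NTC, whereas the other groups of the series, Gli2CA and NTC, held 155 to 171 FPKM and 177 to 197 FPKM under the same line name. The pigment genes Tyr, Tyrp1 and Dct were at 0 in all 6 libraries. Pmel reached at most 0.172 FPKM in Cas9-Gli2KO and 0.292 FPKM in Cas9-NTC, and Mlana at most 0.137 FPKM and 0 FPKM. S100b, a neural crest marker, lay at 3.58 to 5.61 FPKM in Cas9-Gli2KO and 5.34 to 6.28 FPKM in Cas9-NTC. In Gli2CA and NTC, S100b held 59.5 to 65.4 FPKM and 86.0 to 97.2 FPKM. Pax3 was also higher there (5.93 to 6.37 and 5.89 to 6.77 FPKM), and Mitf lower (0.999 to 1.15 and 0.954 to 1.15 FPKM). Melanoma identity therefore rests on the label. Of these markers only Mitf, Pax3 and S100b exceeded 1 FPKM in the Cas9 groups. Pax3 and S100b were higher in Gli2CA and NTC, and Mitf was lower there. Cdkn2a was at 0 in all 6 libraries.

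Library 3 of Cas9-Gli2KO stood apart from libraries 1 and 2. The difference of each library from the control mean, on the log2(FPKM + 1) scale, had an SD over 10970 genes of 0.69, 0.57 and 0.36 in Cas9-Gli2KO libraries 1, 2 and 3. For the Cas9-NTC libraries, each set against the mean of the other controls, the SD was 0.18, 0.15 and 0.16. Across genes, which are not independent replicates, these differences correlated with a Pearson r of 0.94 between Cas9-Gli2KO libraries 1 and 2, 0.31 between 1 and 3, and 0.41 between 2 and 3, and all of them share the control mean. Of 1033 genes whose mean difference in libraries 1 and 2 was at least 1 in size, 754 differed in the same direction in library 3; of all 10970 genes 5878 did (53.6%). In library 3 itself 260 genes differed by at least 1. Of those, 156 also did so in the same direction in the mean of libraries 1 and 2, and 0 did so in the opposite direction. The plot of library 3 against the mean of libraries 1 and 2 shows this shape, with a wide flat cloud of genes that differed in libraries 1 and 2 and a narrower diagonal that all 3 libraries share.

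**Figure D1:**
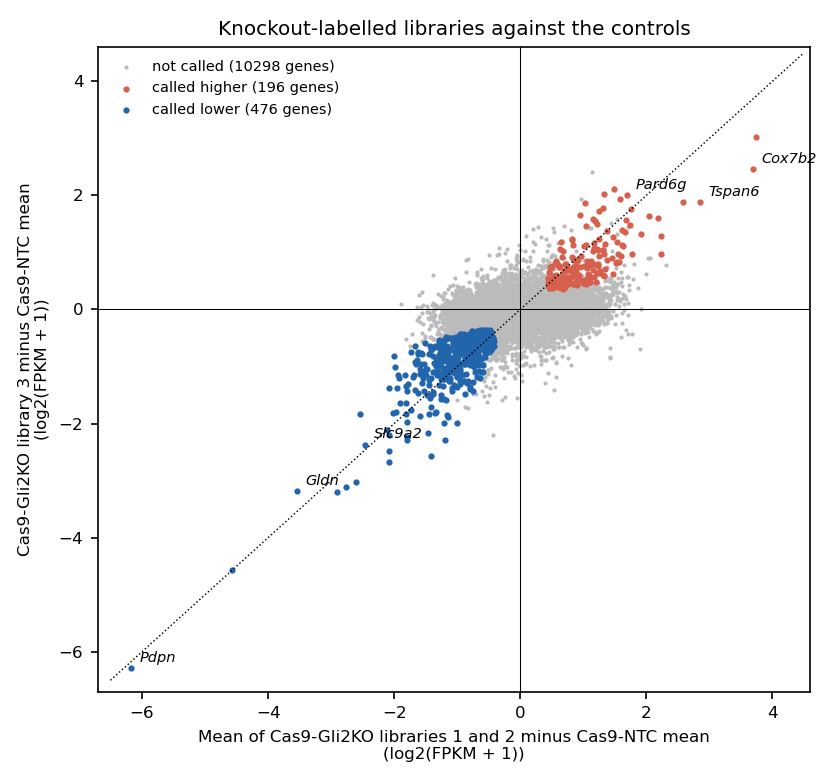
Each point is 1 of 10970 genes; the x axis is the mean of Cas9-Gli2KO libraries 1 and 2 minus the Cas9-NTC mean and the y axis is Cas9-Gli2KO library 3 minus the same mean, both in log2(FPKM + 1), with the dotted line marking equal differences. The 196 genes called higher and the 476 called lower lie along the diagonal, with Pdpn at its lower end.

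Gene length moved with the knockout-labelled libraries 1 and 2 and not with library 3 in the same way. In the shortest of 5 bins of nearly equal size by exonic length, 45 to 2187 bases, the median difference from the control mean was 0.55, 0.40 and -0.06 in Cas9-Gli2KO libraries 1, 2 and 3, and within 0.03 of 0 in the controls. In the longest bin, 7403 to 41155 bases, it was -0.37, -0.29 and 0.07. Genes of the mitochondrial chromosome, 27 in number, had medians of 1.19, 0.54 and -0.15 in those libraries. The plot by gene length shows libraries 1 and 2 crossing 0 between the second and the third bin while library 3 stays flat. The main counts below are therefore given also without library 3 and from a fit after the length trend of each library had been removed.

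**Figure D2:**
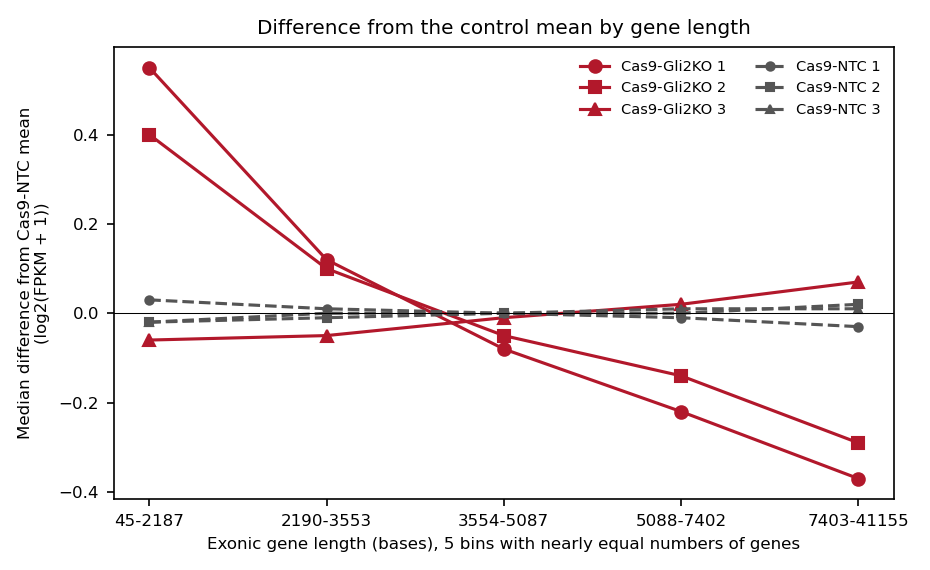
The x axis gives 5 bins of exonic gene length in bases and the y axis the median difference of each library from the Cas9-NTC mean in log2(FPKM + 1); red solid lines are Cas9-Gli2KO libraries and grey dashed lines Cas9-NTC libraries. Libraries 1 and 2 fall with length, to -0.37 and -0.29 in the longest bin, and library 3 ends at 0.07.

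The knockout-labelled libraries held more Gli2 RNA than the controls. Gli2 (ENSMUSG00000048402, chromosome 1, 118834132 to 119053619, minus strand, GRCm38) had 0.82, 0.894 and 2.14 FPKM in Cas9-Gli2KO, from 130, 140 and 345 reads, against 0.249, 0.35 and 0.235 FPKM in Cas9-NTC, from 29, 61 and 42 reads. Every Cas9-Gli2KO library lay above every control, and library 3 was the highest of the 6. The means were 1.28 ± 0.74 FPKM and 0.278 ± 0.0627 FPKM (SD, n = 3 each), a 4.61-fold ratio, with a 2-sided exact permutation p of 0.1, the smallest that 3 against 3 libraries can give. Gli2 lay below the filter of 1 FPKM in 3 libraries, and without that filter limma gave a log2 change of 0.79 (SE 0.23, adjusted p = 0.16). An edit that stops the protein need not lower the RNA, and no value here bears on the protein. Each direction below is that of the label, which the RNA of the targeted gene does not check.

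The direct targets did not move with Gli2 RNA in a manner the tests could separate from the spread. Gli1, a transcription factor and the classical GLI target, had 0.174, 0.0439 and 0.0852 FPKM in Cas9-Gli2KO, against 0.0473, 0.0947 and 0.0693 FPKM in Cas9-NTC. The groups overlapped at 4 to 20 reads a library, with a 2-sided exact permutation p of 0.7. Ptch1, the ligand receptor and a feedback target (chromosome 13, 63508328 to 63573598, minus strand), had 1.00, 1.08 and 2.32 FPKM in Cas9-Gli2KO, against 1.94, 2.12 and 2.07 FPKM in Cas9-NTC. Libraries 1 and 2 lay below every control and library 3 above every control, so the group change was -0.34 on the log2 scale (SE 0.20, limma adjusted p = 0.264). Without library 3 it was -0.58 (limma adjusted p = 0.000903), and -0.23 with the length trend also removed (limma adjusted p = 0.0429).

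The rest of the pathway was expressed in part and gave no call. Of 20 pathway genes 12 passed the filter, and 0 of the 12 were called, against 1.79% of all genes called higher and 4.34% called lower; their median log2 change was -0.10 and that of all genes -0.01. Without library 3, 1 was called higher and 6 lower, where 33.8% and 37.0% of all genes were called. Smo, the signal transducer, had 25.6, 24.3 and 26.8 FPKM in Cas9-Gli2KO, against 20.8, 20 and 22.3 FPKM in Cas9-NTC. All 3 were above every control, with a log2 change of 0.27 that missed the threshold (SE 0.10, limma adjusted p = 0.142). Gli3, the family member that acts mostly as a repressor, had 1.62, 1.65 and 3.87 FPKM in Cas9-Gli2KO and 2.03, 2.46 and 2.31 FPKM in Cas9-NTC. Sufu, the inhibitor that binds GLI proteins, had 2.37, 3.18 and 5.24 FPKM in Cas9-Gli2KO and 4.31, 3.96 and 4.30 FPKM in Cas9-NTC. Both repeated the split of Ptch1, with libraries 1 and 2 under every control and library 3 over every control. Spop, a substrate adaptor of the ligase that degrades GLI proteins, had 50.4, 50.8 and 48.5 FPKM in Cas9-Gli2KO and 53.6, 54.3 and 55.4 FPKM in Cas9-NTC (limma adjusted p = 0.365). Of the ligands, only Dhh passed the filter, and Shh was at 0 in all 6 libraries; both were named after their values were seen. Of 11 measured GLI targets compiled from other tissues, 0 were called higher and 1 lower, with a median of -0.13. The call was Cd44, a hyaluronan receptor, at 50.9, 57.5 and 62.9 FPKM in Cas9-Gli2KO, against 102, 102 and 98.4 FPKM in Cas9-NTC (log2 change -0.81, limma adjusted p = 0.0141). That call ended without Cas9-Gli2KO library 2 or any 1 control, and without library 3 the list gave 7 lower and 2 higher.

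**Figure D3:**
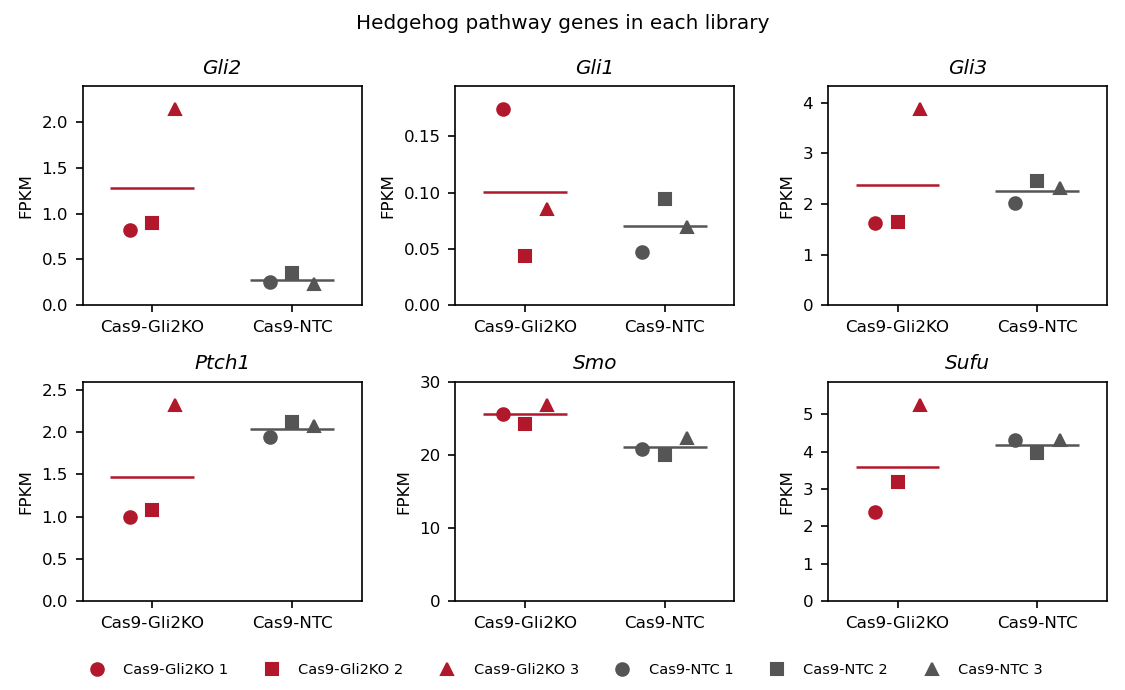
FPKM of 6 Hedgehog pathway genes in each library, with Cas9-Gli2KO (red) left of Cas9-NTC (grey), marker shape for the library number and a line at each group mean. Gli2 is above every control in all 3 knockout-labelled libraries, and library 3 is the highest point for every gene but Gli1.

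Across the transcriptome 196 genes rose and 476 fell in Cas9-Gli2KO, which is 1.79% and 4.34% of the 10970 genes tested, or 6.13% in all (limma, adjusted p under 0.05). By at least 2-fold on the fitted scale, 63 rose (0.574%) and 170 fell (1.55%). Every Cas9-Gli2KO library lay above every control for 1743 genes (15.9%) and below every control for 2172 (19.8%), and all 672 called genes were among these. Without library 3 the counts were 3704 (33.8%) and 4060 (37.0%), and with the length trend removed 366 (3.34%) and 695 (6.34%). All 672 genes kept their direction and their call without library 3, and 588 kept their call with the length trend removed. Every other omission cut the counts: 81 rose and 263 fell without Cas9-Gli2KO library 1, and 36 rose and 126 fell without Cas9-Gli2KO library 2. Without Cas9-NTC library 1, 2 or 3 the counts were 26 and 98, 22 and 80, and 32 and 105.

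The largest fall was that of Pdpn (chromosome 4, 143267431 to 143299564, minus strand), which encodes the membrane glycoprotein podoplanin. It had 0.143, 0.241 and 0.0937 FPKM in Cas9-Gli2KO, from 6, 10 and 4 reads, against 85.0, 90.3 and 78.9 FPKM in Cas9-NTC, from 2619, 4157 and 3724 reads. The 3 knockout-labelled libraries were alike in this, library 3 the lowest, and the ratio of means was 531-fold (log2 change -6.21, SE 0.11, limma adjusted p = 4.19e-06). In bulk RNA fewer expressing cells and less RNA per cell cannot be told apart, here or for any gene below. Slc9a2 (chromosome 1, 40680574 to 40769273, plus strand), a sodium-hydrogen exchanger, had 0.0559, 0.0628 and 0.128 FPKM in Cas9-Gli2KO, against 4.88, 4.79 and 4.79 FPKM in Cas9-NTC. Only 9, 10 and 21 reads stood behind the Cas9-Gli2KO values. That was a 58.7-fold ratio of means with no overlap (log2 change -2.43, limma adjusted p = 0.000218). Gldn (chromosome 9, 54286486 to 54341786, plus strand), the gene of gliomedin, a matrix ligand of the node of Ranvier, had 0.437, 0.584 and 0.932 FPKM in Cas9-Gli2KO, against 16, 17.1 and 16.5 FPKM in Cas9-NTC. The fall was 25.4-fold (log2 change -3.42, limma adjusted p = 0.000225).

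The other leading falls were 5.26-fold to 16.1-fold in mean FPKM. Hspb8, a small heat shock protein, had 0.711, 1.24 and 0.589 FPKM in Cas9-Gli2KO, against 13.9, 14.1 and 12.8 FPKM in Cas9-NTC. Tnfrsf9, the costimulatory receptor 4-1BB, had 1.45, 0.87 and 0.594 FPKM in Cas9-Gli2KO, against 12.5, 12.3 and 11.3 FPKM in Cas9-NTC. In both, library 3 was the lowest of the 6. Itgb7, an integrin beta chain, had 6.06, 7.03 and 11.4 FPKM in Cas9-Gli2KO, against 41.8, 43.2 and 43.8 FPKM in Cas9-NTC. Car9, a carbonic anhydrase induced by low oxygen, had 1.73, 1.28 and 1.5 FPKM in Cas9-Gli2KO, against 8.32, 11.2 and 10.2 FPKM in Cas9-NTC. Stmn2, a microtubule regulator of neurons, Trim54, a muscle ubiquitin ligase, and Prl2c3, of the prolactin family, fell 7.12-fold, 5.35-fold and 13.1-fold. Prl2c3 has near-identical copies among which reads may have been split, so its values are uncertain. The exons of Car9 and Trim54 overlap another gene, and without known use of strand their reads cannot be assigned with certainty.

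The leading rises were of a like order, and several were largest in library 1. Cox7b2 (chromosome 5, 71442824 to 71548205, minus strand), a cytochrome c oxidase subunit known from testis, had 17.0, 11.7 and 5.42 FPKM in Cas9-Gli2KO, against 0.218, 0.146 and 0.142 FPKM in Cas9-NTC. Each control held 2 reads, so no fold is given (log2 change 3.28, SE 0.35, limma adjusted p = 0.00564). Tspan6 (chromosome X, 133891068 to 133898429, minus strand), a tetraspanin, had 19.4, 13.4 and 7.75 FPKM in Cas9-Gli2KO, against 1.23, 1.74 and 1.2 FPKM in Cas9-NTC, a 9.74-fold rise. Prelid2, of a family of mitochondrial lipid carriers, had 17.8, 11.4 and 8.46 FPKM in Cas9-Gli2KO, against 1.55, 1.42 and 1.70 FPKM in Cas9-NTC. For these 3 genes the order within Cas9-Gli2KO was the same, library 1 highest and library 3 lowest, and no library overlapped the controls. The transcription factor Tbx2 went the other way within the group, with 4.6, 4.33 and 7.44 FPKM in Cas9-Gli2KO, against 0.928, 0.859 and 1.10 FPKM in Cas9-NTC (5.66-fold, limma adjusted p = 0.00633). So did the polarity gene Pard6g, at 2.76, 2.85 and 3.71 FPKM in Cas9-Gli2KO, against 0.225, 0.138 and 0.159 FPKM in Cas9-NTC (17.8-fold, limma adjusted p = 0.00193), where the controls held 11 to 13 reads each. Clmp, an adhesion molecule of cell junctions, rose 3.92-fold, Ppp1r1a, an inhibitor of protein phosphatase 1, 4.64-fold, Itm2a, a membrane protein, 12.7-fold, and the X-linked lymphocyte-regulated gene Xlr 27.1-fold. The controls held 12 reads each for Itm2a and 5 to 8 for Xlr. The exons of Clmp overlap another gene. The small nucleolar RNA Snora31, 130 bases long, rose 3.87-fold over controls with 6, 14 and 18 reads.

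All 20 of these leading genes were also called with the length trend removed, and likewise with Cas9-Gli2KO library 3 left out. The 10 falls kept their calls whichever of the 6 libraries was left out. Of the rises, Itm2a lost its call without Cas9-Gli2KO library 1 or 2 or any 1 control, Xlr and Snora31 without Cas9-Gli2KO library 2 or any 1 control, Tspan6 without Cas9-Gli2KO library 2 or Cas9-NTC library 1 or 3, and Tbx2 without Cas9-NTC library 1 or 2.

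**Figure D4:**
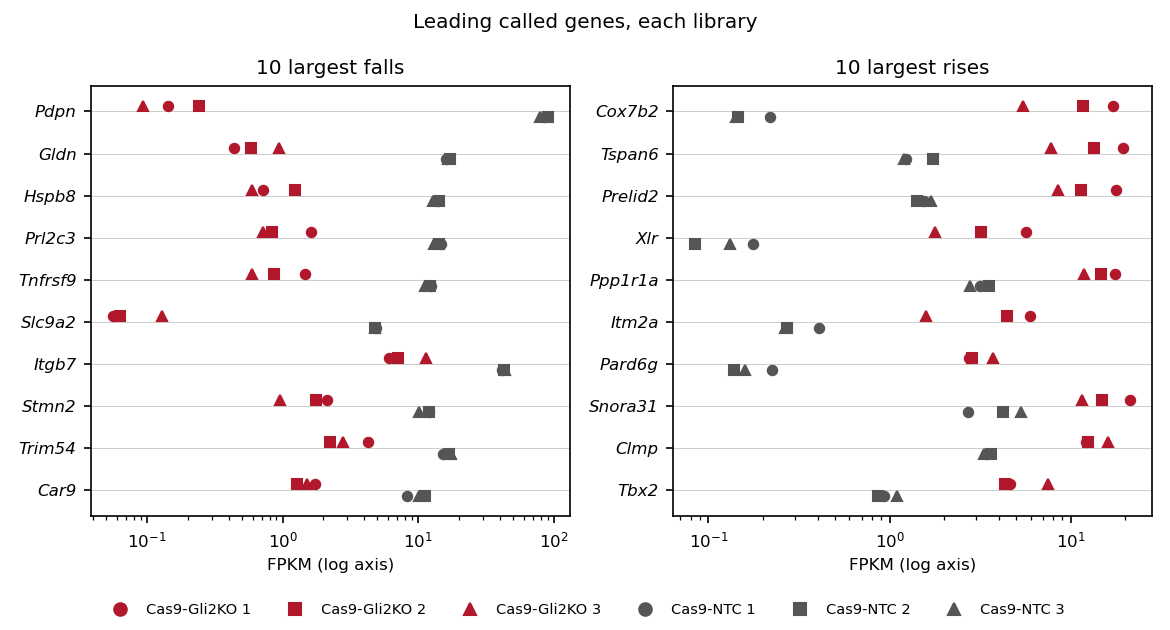
FPKM on a log axis for the 10 largest falls (left panel) and the 10 largest rises (right panel) among called genes, with Cas9-Gli2KO libraries (red) above Cas9-NTC libraries (grey) in each row. No gene shows overlap between the groups, and Pdpn has the widest gap, 0.0937 to 0.241 FPKM against 78.9 to 90.3 FPKM.

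By their medians, interferon-stimulated genes were lower in all 3 knockout-labelled libraries, library 3 included. These genes, which encode antiviral effectors and RNA sensors, are switched on when interferon binds its receptor. Of 26 in the list 24 were measured, of which 14 fell, 0 rose and 10 were not called, against 4.34% and 1.79% of all genes. Their median log2 change was -0.73, that of all genes -0.01, and the medians by library were -0.65, -0.60 and -0.87. In 21 of the 24 every Cas9-Gli2KO library lay below every control, where 19.8% of all genes did. Without library 3, 20 fell and 1 rose, where 37.0% and 33.8% of all genes were called. With the length trend removed 14 fell, where 6.34% of all genes did, and the median was -0.87. Those 14 leave out Irf9 and Ifi44 and take in Ifitm3 and Oas1a. The count was 9 without Cas9-Gli2KO library 2, and 6, 4 and 6 without Cas9-NTC library 1, 2 or 3. In the same fits 126, 98, 80 and 105 of all 10970 genes fell.

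Oas2 (chromosome 5, 120730333 to 120749853, minus strand), an enzyme that activates RNase L on viral RNA, had 0.331, 0.335 and 0.191 FPKM in Cas9-Gli2KO, against 3.95, 4.02 and 3.05 FPKM in Cas9-NTC. This 12.9-fold fall showed no overlap (log2 change -1.86, SE 0.12, limma adjusted p = 0.00193). Oasl1, a related protein, had 3.46, 4 and 4.72 FPKM in Cas9-Gli2KO, against 11.5, 11.4 and 11.0 FPKM in Cas9-NTC (limma adjusted p = 0.00358), and its exons overlap another gene. Ddx58, the gene of the RNA sensor RIG-I, had 2.24, 2.78 and 5.05 FPKM in Cas9-Gli2KO, against 9.40, 9.87 and 8.81 FPKM in Cas9-NTC (limma adjusted p = 0.0274). In these 2 genes library 3 lay closest to the controls while still below them. The regulators of the response were named after their values were seen. Irf7, a transcription factor of the interferon response, fell by 1.18 on the log2 scale (limma adjusted p = 0.00457) and Irf9 by 0.48 (limma adjusted p = 0.0489, or 0.0852 with the length trend removed), while Stat2 had a log2 change of -0.50 (limma adjusted p = 0.056). Not every member followed. Isg15, a ubiquitin-like protein, had 39.3, 33.5 and 14.4 FPKM in Cas9-Gli2KO, against 40.3, 34.6 and 32.7 FPKM in Cas9-NTC, so that library 3 alone lay far below. Irf1 had a log2 change of 0.03 (limma adjusted p = 0.858).

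The letters of the interferon-stimulated response element were searched for in the promoters of the list. Their core, GAAA, any 2 bases and GAAA again, searched on both strands, occurred in 13 of 25 RefSeq promoter windows (52.0%) of 21 matched list genes, and in 1131 of all 32851 windows (3.44%). Among called members 7 of the 12 with a window held it, and among measured members that were not called 6 of 9 did. The windows of 4 called genes, chosen after their values were seen and shown because they hold the core, have 300 bases each around the gene's start (GRCm38.p6, strand of the gene) and carry each match in capitals. They are Ifit1 (chr19:34640639-34640938, plus strand), Ifit3 (chr19:34583279-34583578, plus strand), Gbp3 (chr3:142559794-142560093, plus strand) and Oas3 (chr5:120777610-120777909, minus strand).
Ifit1: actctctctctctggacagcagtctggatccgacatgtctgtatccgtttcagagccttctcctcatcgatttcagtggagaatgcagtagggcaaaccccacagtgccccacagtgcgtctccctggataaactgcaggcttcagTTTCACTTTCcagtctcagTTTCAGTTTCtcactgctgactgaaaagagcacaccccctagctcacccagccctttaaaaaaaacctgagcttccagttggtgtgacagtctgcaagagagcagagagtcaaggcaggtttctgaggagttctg
Ifit3: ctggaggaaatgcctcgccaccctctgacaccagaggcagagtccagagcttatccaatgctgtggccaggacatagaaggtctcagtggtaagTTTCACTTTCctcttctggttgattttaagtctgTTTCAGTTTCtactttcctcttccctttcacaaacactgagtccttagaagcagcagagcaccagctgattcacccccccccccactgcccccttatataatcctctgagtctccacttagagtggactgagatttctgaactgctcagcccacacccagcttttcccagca
Gbp3: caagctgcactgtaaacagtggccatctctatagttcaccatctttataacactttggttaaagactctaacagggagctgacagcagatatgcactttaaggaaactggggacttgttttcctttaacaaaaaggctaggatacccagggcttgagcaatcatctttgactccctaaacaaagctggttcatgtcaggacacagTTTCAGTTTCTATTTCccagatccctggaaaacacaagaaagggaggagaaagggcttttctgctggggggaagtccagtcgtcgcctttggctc
Oas3: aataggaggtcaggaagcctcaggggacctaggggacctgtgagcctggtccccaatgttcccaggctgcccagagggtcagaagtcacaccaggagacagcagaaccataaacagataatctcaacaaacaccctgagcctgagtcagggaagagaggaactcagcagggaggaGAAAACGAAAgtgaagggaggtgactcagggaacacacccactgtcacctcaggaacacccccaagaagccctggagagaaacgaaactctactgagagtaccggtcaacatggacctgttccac
In Gbp3 the 2 matches overlap and print as 1 run of capitals.

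Ifit1 and Ifit3, neighbours on chromosome 19 whose products bind viral RNA, had 6.27, 7.38 and 6.66 FPKM and 8.05, 8.72 and 7.34 FPKM in Cas9-Gli2KO, against 13.7, 11.8 and 12.9 FPKM and 19.4, 17.6 and 16.5 FPKM in Cas9-NTC. Gbp3, a guanylate-binding protein, had 3.13, 3.69 and 3.23 FPKM in Cas9-Gli2KO, against 8.12, 6.63 and 7.04 FPKM in Cas9-NTC. These 3 genes were close to level across the 3 knockout-labelled libraries and clear of the controls (limma adjusted p = 0.0102, 0.00539 and 0.00823). Oas3 had 0.0552, 0.229 and 0.313 FPKM in Cas9-Gli2KO, against 1.58, 1.46 and 1.36 FPKM in Cas9-NTC (limma adjusted p = 0.00622). A GLI consensus, GACCACCCA on either strand, occurred in 0 of 18 windows of the Hedgehog pathway genes and in 83 of all windows (0.253%), which says only that these letters are not in those windows.

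Prostaglandin genes also had a negative median in all 3 knockout-labelled libraries. Prostaglandins are lipid mediators made by the cyclooxygenases, carried across membranes by transporters and sensed by their own receptors. Of 20 genes 10 were measured, of which 5 fell, 0 rose and 5 were not called, against 4.34% and 1.79% of all genes; the median log2 change was -0.71 and those of the 3 libraries -0.64, -0.64 and -0.49. Ptgs2 (chromosome 1, 150100031 to 150108227, plus strand), the inducible cyclooxygenase, had 11.3, 12.1 and 13.2 FPKM in Cas9-Gli2KO, against 37.2, 40.5 and 37.3 FPKM in Cas9-NTC. It fell 3.14-fold with no overlap (log2 change -1.58, SE 0.10, limma adjusted p = 0.00193). Ptgs1, the constitutive form, had 30.2, 34.8 and 46.6 FPKM in Cas9-Gli2KO, against 66.7, 67.0 and 62.4 FPKM in Cas9-NTC (limma adjusted p = 0.0433). The transporter Slco2a1 had 1.57, 1.97 and 4.65 FPKM in Cas9-Gli2KO, against 7.38, 8.21 and 7.82 FPKM in Cas9-NTC (limma adjusted p = 0.0493). Library 3 was nearest the controls for all 3 genes, and the exons of Ptgs1 and Slco2a1 overlap another gene. The prostaglandin E synthase Ptges and the receptor Ptgfr, named after their values were seen, fell by 0.66 and 0.77 on the log2 scale. Only Ptgs2 was called in 8 of the other settings tried, among them every fit that left out 1 library other than Cas9-Gli2KO library 3. Leaving out library 3 gave 7 lower and 3 higher, where 37.0% and 33.8% of all genes were called. With the length trend removed 5 were lower, where 6.34% of all genes were. Ptgfr was no longer called (limma adjusted p = 0.104), and the exporter Abcc4 was among the 5.

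**Figure D5:**
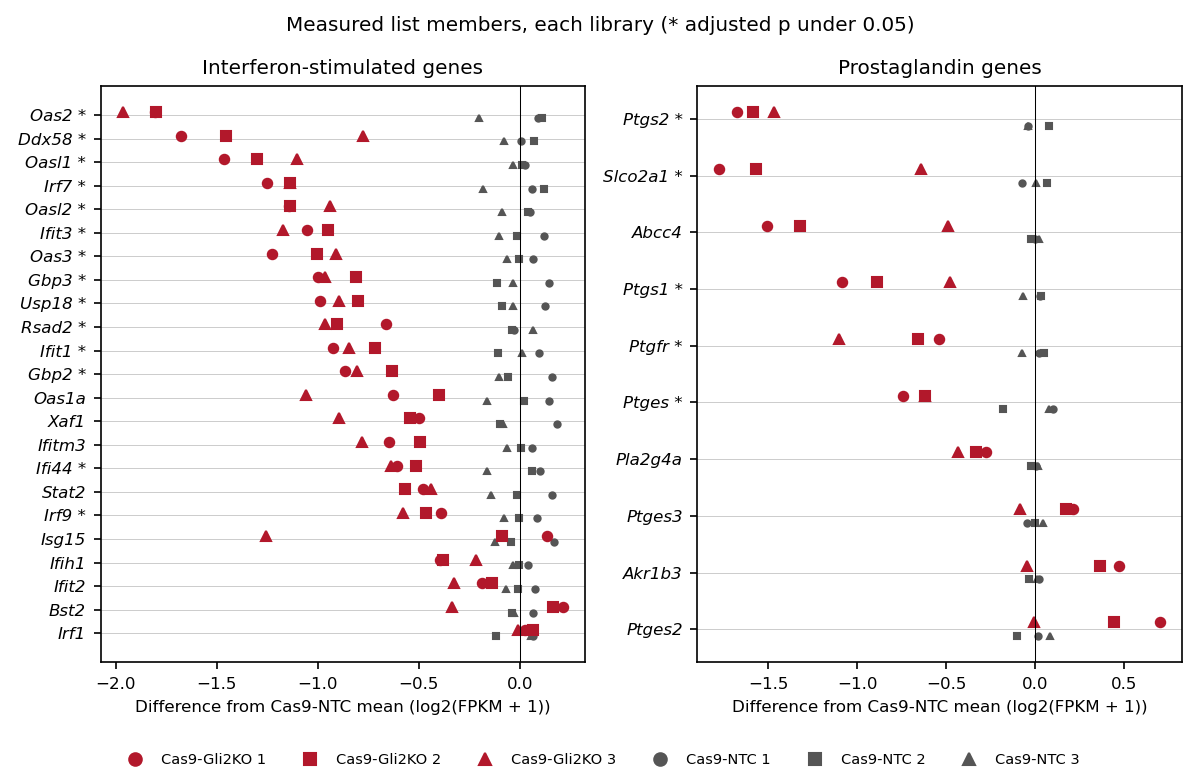
Difference of each library from the Cas9-NTC mean in log2(FPKM + 1) for 23 of the 24 measured interferon-stimulated genes (left) and the 10 measured prostaglandin genes (right), Cas9-Gli2KO in red above Cas9-NTC in grey; an asterisk marks an adjusted p under 0.05. Most interferon-stimulated genes have all 3 red points left of the grey ones. The exceptions are Isg15, which stands higher up, and Bst2 and Irf1 at the bottom.

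Among immune mediators, 2 of 7 measured secreted factors that draw myeloid cells fell and 0 rose, with a median of -0.65. Of all genes 4.34% fell and 1.79% rose. Without library 3 the list gave 5 lower and 1 higher, where 37.0% and 33.8% of all genes were called. With the length trend removed 4 were lower, where 6.34% of all genes were, and 1 was lower in each fit that left out Cas9-Gli2KO library 2 or any 1 control. Ccl7, a monocyte chemoattractant, had 57.5, 42.8 and 22.8 FPKM in Cas9-Gli2KO, against 124, 117 and 105 FPKM in Cas9-NTC (log2 change -1.56, limma adjusted p = 0.0423). The cytokine Lif had 1.11, 1.56 and 1.72 FPKM in Cas9-Gli2KO, against 4.76, 4.70 and 4.86 FPKM in Cas9-NTC (log2 change -1.24, limma adjusted p = 0.00459). Ccl2, the neighbour of Ccl7 and also a monocyte chemoattractant, had 307, 274 and 169 FPKM in Cas9-Gli2KO, against 495, 469 and 450 FPKM in Cas9-NTC. Its groups did not overlap and its log2 change of -0.96 missed the threshold (limma adjusted p = 0.0674), but passed it with the length trend removed (limma adjusted p = 0.00171). Of 2 measured chemokines for T cells and dendritic cells 0 were called, and Ccl5 had 9.30, 8.95 and 7.45 FPKM in Cas9-Gli2KO and 13.2, 13.2 and 11.6 FPKM in Cas9-NTC. Of 19 measured genes of MHC class I presentation 1 fell, the nonclassical H2-T23 (log2 change -1.01, limma adjusted p = 0.0118), whose reads may be shared with related genes; the median was -0.16. That share is close to the 4.34% of all genes, and without library 3 the list gave 9 lower and 6 higher. Of 9 measured checkpoint ligands and suppressive factors 1 fell, the adhesion ligand Pvr, at 17.4, 17.6 and 20 FPKM in Cas9-Gli2KO, against 34.3, 33.7 and 33.6 FPKM in Cas9-NTC (limma adjusted p = 0.00727). Without library 3 that list gave 5 lower and 1 higher. The H2-T23 call ended without any 1 control, and the Pvr call without Cas9-Gli2KO library 2 or any 1 control.

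Genes of mesenchymal and matrix programmes split by library. Of 20 measured mesenchymal transition genes 5 fell and 0 rose, with a median of -0.50 and medians by library of -0.74, -0.68 and -0.16. Of all genes 4.34% fell and 1.79% rose. Without library 3, 14 were lower and 2 higher, against 37.0% and 33.8% of all genes. With the length trend removed 6 were lower, where 6.34% of all genes were. The count of falls was 1 without Cas9-Gli2KO library 2, and 2, 1 and 1 without Cas9-NTC library 1, 2 or 3. In the same fits 126, 98, 80 and 105 of all 10970 genes fell. Besides Pdpn and Cd44 these were the integrin chain Itgb3 and 2 matrix proteins. Tgfbi had 12.7, 14.7 and 22.8 FPKM in Cas9-Gli2KO, against 46.0, 46.6 and 42.8 FPKM in Cas9-NTC (2.70-fold, limma adjusted p = 0.0151). Tnc had 0.374, 0.378 and 0.914 FPKM in Cas9-Gli2KO, against 2.24, 2.60 and 2.22 FPKM in Cas9-NTC (4.24-fold, limma adjusted p = 0.0124). The 18 measured collagens and matrix genes had medians of -1.18, -0.93 and 0.13 in the 3 libraries, so libraries 1 and 2 were far below the controls and library 3 was not. In that list 1 rose and 1 fell, where 1.79% and 4.34% of all genes did. Without library 3, 15 of the 18 were lower and 1 higher, where 37.0% and 33.8% of all genes were. With the length trend removed 2 were lower and 1 higher, where 6.34% and 3.34% of all genes were. Without any 1 of the other libraries 0 were lower, and the rise lost its call without Cas9-Gli2KO library 2 or any 1 control. The metalloproteinase Mmp9 had 2.34, 3.12 and 4.15 FPKM in Cas9-Gli2KO, against 0.65, 0.568 and 0.294 FPKM in Cas9-NTC (6.36-fold, limma adjusted p = 0.00878), and the inhibitor Timp1 had 101, 104 and 69.3 FPKM against 184, 180 and 175 FPKM (limma adjusted p = 0.0281). Of 15 measured integrins 3 fell, Itgb7, Itgb3 and Itga7, and 1 rose, the leukocyte beta chain Itgb2, at 8.07, 7.99 and 11.1 FPKM in Cas9-Gli2KO, against 3.23, 3.24 and 3.72 FPKM in Cas9-NTC (2.67-fold, limma adjusted p = 0.00845). With all 6 libraries 4.34% of all genes fell and 1.79% rose. Without library 3, 12 integrins were lower and 1 higher, where 37.0% and 33.8% of all genes were. With the length trend removed 4 were lower and 1 higher, where 6.34% and 3.34% of all genes were. The falls numbered 1 without Cas9-Gli2KO library 2, and 2, 1 and 1 without Cas9-NTC library 1, 2 or 3. The rise of Itgb2 lost its call without any 1 control.

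The 10 genes that were highest in library 3 relative to libraries 1 and 2, with exonic lengths of 6619 to 11685 bases, included the basement membrane chains Col4a1, Col4a2, Lamc1 and Nid1, the fibrillar collagen Col5a1 and fibronectin, Fn1. Col4a2 had 9.31, 12.6 and 46.0 FPKM in Cas9-Gli2KO and 37.5, 44.9 and 46.2 FPKM in Cas9-NTC. Lamc1 had 11.3, 13.9 and 48.4 FPKM in Cas9-Gli2KO and 36.9, 41.0 and 39.2 FPKM in Cas9-NTC. Libraries 1 and 2 were the ones that left the control range, while library 3 lay in it or above it. The others of the 10 were Tenm3, Igf2r, Glg1 and Prrc2b. Of the 10 that were lowest in library 3, 9 were under 200 bases, among them the mitochondrial transfer RNAs mt-Tn, mt-Ti, mt-Tc and mt-Te, the small nucleolar RNAs Snord49b, Snord55 and Snord58b and the spliceosomal Rnu5g. The transfer RNA mt-Tc had 370, 353 and 84.5 FPKM in Cas9-Gli2KO and 147, 130 and 87.5 FPKM in Cas9-NTC. The pseudogene Tma7-ps and the natriuretic peptide gene Nppb, the 1 member over 200 bases, completed the 10.

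Of 19 measured genes of MAPK output 4 fell and 0 rose (median -0.52), where 4.34% and 1.79% of all genes did. Without library 3, 17 were lower and 1 higher, against 37.0% and 33.8% of all genes. With the length trend removed 5 were lower, where 6.34% of all genes were. The falls numbered 1 without Cas9-Gli2KO library 2 and 0 without any 1 control. The 4 were led by the early response gene Ier3 at 119, 130 and 108 FPKM in Cas9-Gli2KO, against 256, 244 and 233 FPKM in Cas9-NTC (limma adjusted p = 0.00743). The feedback phosphatase Dusp5 and the early response transcription factor Egr1 fell 2.16-fold and 2.20-fold, and Phlda1 was the fourth. Of 17 measured genes of TGF-beta and BMP signalling 2 rose and 2 fell, where 1.79% and 4.34% of all genes did. Without library 3 the counts were 5 higher and 11 lower, where 33.8% and 37.0% of all genes were called. Without Cas9-Gli2KO library 2 or any 1 control 0 were called higher. The risers were the BMP targets Id3, at 49.2, 46.4 and 30.9 FPKM in Cas9-Gli2KO, against 19.4, 19.3 and 19.6 FPKM in Cas9-NTC, and Id1, at 33.4, 30 and 25.3 FPKM against 15.0, 14.5 and 14 FPKM (limma adjusted p = 0.0263 and 0.00987). Among those that fell was the BMP antagonist Grem1 (log2 change -0.92). Of 4 measured Wnt ligands 1 fell, Wnt5b (1.70-fold, limma adjusted p = 0.0439). Of 7 measured Wnt feedback targets the antagonist Dkk2 fell (2.49-fold, limma adjusted p = 0.0284) and the inhibitor Nkd2 rose (1.70-fold, limma adjusted p = 0.0184). Of 13 measured receptor tyrosine kinases Pdgfra and Mertk fell (3.09-fold and 1.65-fold) and 0 rose. With all 6 libraries 4.34% of all genes fell and 1.79% rose. Without library 3, 9 of these kinases, all 4 Wnt ligands and 4 Wnt feedback targets were lower, where 37.0% of all genes were. Without any 1 of the other libraries 0 of the 3 lists' genes were lower. The rise of Nkd2 lost its call without Cas9-Gli2KO library 2 or any 1 control.

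Of 19 measured hypoxia and glycolysis genes 3 fell and 0 rose, with a median of -0.37, where 4.34% and 1.79% of all genes did. Without library 3, 10 were lower and 4 higher, against 37.0% and 33.8% of all genes. With the length trend removed 3 were lower, where 6.34% of all genes were. Without 1 of the other libraries 1 or 2 were lower. Besides Car9 these were Ndrg1, at 7.22, 8.48 and 8.61 FPKM in Cas9-Gli2KO, against 16.7, 17.2 and 17.6 FPKM in Cas9-NTC (limma adjusted p = 0.00515), and the glucose transporter Slc2a1 (1.88-fold, limma adjusted p = 0.0299). Of 15 measured NRF2 antioxidant genes 3 fell and 0 rose, where 4.34% and 1.79% of all genes did. All 3 libraries lay below every control in 11 of them, where 19.8% of all genes did so. The calls were the glutathione transferase Gstm1, the haem oxygenase Hmox1 and Gclm, a subunit of the enzyme that makes glutathione's precursor, by 1.42-fold to 1.83-fold. All 3 lost their call with the length trend removed (limma adjusted p = 0.0615, 0.0625 and 0.0657), when Nqo1, Pgd and Srxn1 were called instead. Without library 3, 12 of the list were lower, where 37.0% of all genes were, and without any 1 of the other libraries 0 were. Of 21 measured genes of the stress and unfolded protein response 2 fell, Chac1, which degrades glutathione, and the factor Cebpb (2.24-fold and 1.92-fold), and Cebpb lost its call with the length trend removed (limma adjusted p = 0.0646). Without library 3 the list gave 11 lower and 5 higher, where 37.0% and 33.8% of all genes were called. Without 1 of the other libraries it gave 1 lower. Of 20 measured p53 targets Gadd45a rose 2.02-fold while Plk3 and the cell cycle inhibitor Cdkn1a fell 1.79-fold and 1.55-fold; the list median was 0.03, and -0.12 after rescaling to a common FPKM total, which moved the median of all genes to -0.16. Without library 3, 8 were higher and 7 lower, where 33.8% and 37.0% of all genes were. With the length trend removed 4 were higher and 2 lower, where 3.34% and 6.34% of all genes were. Without 1 of the other libraries 0 were lower. The rise of Gadd45a lost its call without Cas9-Gli2KO library 2 or any 1 control. Of 21 measured cholesterol and fatty acid genes 1 rose, the elongase Elovl6 (1.43-fold, limma adjusted p = 0.0446), and the list median was 0.14, or -0.03 after that rescaling. Without library 3, 8 were higher and 9 lower, where 33.8% and 37.0% of all genes were, and without any 1 of the other libraries 0 were called.

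Cell cycle lists gave no call with all 6 libraries. Of 20 measured genes of DNA replication 0 were called (median 0.04, or -0.14 after rescaling) and of 20 measured genes of mitosis 0 were called (median -0.01). Without library 3 the replication list gave 7 higher and 7 lower and the mitosis list 6 higher and 9 lower, where 33.8% and 37.0% of all genes were called. With the length trend removed, or without any 1 of the other libraries, 0 of either were called. Pcna, the replication clamp, had 219, 186 and 146 FPKM in Cas9-Gli2KO and 125, 122 and 133 FPKM in Cas9-NTC, without overlap (limma adjusted p = 0.116). Bub1, a spindle checkpoint kinase, had 34.5, 32.9 and 27.0 FPKM in Cas9-Gli2KO and 23.9, 22.9 and 22.9 FPKM in Cas9-NTC (limma adjusted p = 0.0979). Of 5 measured melanocyte genes 0 were called, and of 16 neural-crest-like genes 1 fell, Ccn2, a matricellular protein (2.45-fold, limma adjusted p = 0.0442). With all 6 libraries 4.34% of all genes fell and 1.79% rose. Without library 3, 3 melanocyte genes and 13 neural-crest-like genes were lower, where 37.0% of all genes were. Without any 1 of the other libraries 0 were. The receptor kinase Axl of that list had 68.5, 81.7 and 131 FPKM in Cas9-Gli2KO and 159, 166 and 169 FPKM in Cas9-NTC (limma adjusted p = 0.086). Of 17 epithelial genes Krt18 alone was measured, and it was not called (limma adjusted p = 0.0523).

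Most markers of other cell types lay below the filter, but 5 of 10 fibroblast markers passed it. Of 14 leukocyte markers only Cd68, a lysosomal protein also made by other cells, was measured. It fell 5.37-fold, to 1.76, 1.47 and 1.96 FPKM in Cas9-Gli2KO, against 9.06, 9.47 and 9.31 FPKM in Cas9-NTC (limma adjusted p = 0.00127). The summed level of the list was 1.98 to 2.52 FPKM in Cas9-Gli2KO and 9.78 to 9.91 FPKM in Cas9-NTC, and Ptprc, the pan-leukocyte marker, reached at most 0.0419 FPKM in any library. Of 10 fibroblast markers 5 were measured, of which Pdgfra, Ly6c1 and Dpt fell and Fap, a surface protease, rose 2.86-fold. With all 6 libraries 4.34% of all genes fell and 1.79% rose. Without library 3, 4 fibroblast markers were lower and 1 higher, where 37.0% and 33.8% of all genes were called. Without Cas9-Gli2KO library 2 or any 1 control 1 was lower and 0 higher. The summed level of the fibroblast markers was 254 to 371 FPKM in Cas9-Gli2KO and 389 to 403 FPKM in Cas9-NTC. The called markers each reached at most 19.8 FPKM, so the 1 measured marker that was not called held most of this sum. Lum was at 0 in all 6 libraries, and the defining collagen-binding gene Dcn reached at most 0.2 FPKM. Of 12 endothelial markers 3 were measured and 0 called (without library 3, 1 higher and 2 lower; with the length trend removed, 1 higher and 1 lower), with summed levels of 34.5 to 84.2 FPKM in Cas9-Gli2KO and 74.1 to 76.0 FPKM in Cas9-NTC, and Cldn5 was at 0. The cadherin Cdh5 had 6.17, 8.76 and 19.3 FPKM in Cas9-Gli2KO and 2.47, 2.97 and 2.99 FPKM in Cas9-NTC (limma adjusted p = 0.0566), while Pecam1 reached at most 0.0615 FPKM. Eng and Flt1 lay below every control instead. Eng had 25.3, 29.1 and 59.1 FPKM in Cas9-Gli2KO and 62.5, 64.1 and 63.8 FPKM in Cas9-NTC (limma adjusted p = 0.14). Flt1 had 2.13, 2.8 and 5.26 FPKM in Cas9-Gli2KO and 7.62, 8.13 and 8.26 FPKM in Cas9-NTC (limma adjusted p = 0.0541). Of 12 keratinocyte markers 2 were measured, and Ivl, involucrin, fell 8.57-fold (limma adjusted p = 0.0021) to 12 to 17 reads a library in Cas9-Gli2KO; the summed level was 1.75 to 3.96 FPKM in Cas9-Gli2KO and 4.77 to 5.52 FPKM in Cas9-NTC, with Trp63 at 0. The part of other cell types in the results was not tested.

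The X chromosome showed a regional pattern that all 3 knockout-labelled libraries shared. Of its 332 measured genes 24 rose (7.23%) and 46 fell (13.9%), against 1.79% and 4.34% of all genes. Of 115 genes that start before 60 Mb 41 fell and 2 rose, and their median differences from the control mean were -0.51, -0.48 and -0.53 in libraries 1, 2 and 3. Of 217 genes from 60 Mb on 22 rose and 5 fell, with medians of 0.30, 0.31 and 0.18. With the length trend removed the calls were 55 lower and 2 higher before 60 Mb, and 5 lower and 49 higher after it. The boundary was set after the values were seen, so these counts are a description.

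In windows of 20 Mb with at least 20 measured genes and the length trend removed, 3 of 9 windows on X had all 3 library medians at or below -0.25 and 3 had all 3 at or above 0.25. Of 128 windows on other chromosomes 0 did either. The first 20 Mb of X had medians of -0.69, -0.65 and -0.55 in 39 genes, and the stretch from 120 to 140 Mb had medians of 0.57, 0.69 and 0.51 in 27 genes. Outside X, the window furthest below 0 by its mildest library reached -0.14, and the one furthest above reached 0.11. Of the genes already described, Timp1 lies in the low stretch of X, and Itm2a and Tspan6 lie in the stretch above 60 Mb. Xlr, at 53777118 to 53797706, is 1 of the 2 genes that rose within the low stretch.

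Other sex-linked genes bore on the identity of the libraries. Xist, the RNA that coats an inactive X, lay at or under 0.0266 FPKM in all 6 libraries. The Y-linked genes Ddx3y, Kdm5d, Uty and Eif2s3y were detected in all 6, in both groups. Ddx3y had 26.5, 24.5 and 19.1 FPKM in Cas9-Gli2KO and 33.4, 30.5 and 30 FPKM in Cas9-NTC, without overlap (limma adjusted p = 0.127). Uty had 2.72, 2.91 and 2.39 FPKM in Cas9-Gli2KO, against 4.5, 4.11 and 4.19 FPKM in Cas9-NTC (log2 change -0.52, limma adjusted p = 0.0367), a call that ended with the length trend removed (limma adjusted p = 0.19). Braf itself had 0.988, 1.19 and 1.70 FPKM in Cas9-Gli2KO and 1.5, 1.53 and 1.41 FPKM in Cas9-NTC (limma adjusted p = 0.517).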

How the data were processed

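Poly(A) RNA, per the labels' protocols, was compared between 6 libraries, 3 labelled Cas9-Gli2KO and 3 labelled Cas9-NTC. The authors deposited FPKM values for 54532 Ensembl genes. The sources used here do not give the aligner, counter, build or use of strand, so overlapping genes and near-identical copies are uncertain. Besides the genes marked above, exons of Gli1, Gli3, Tnc, Ndrg1, Slc2a1, Dusp5, Pdgfra, Cdkn1a, Gadd45a and Elovl6, among others, overlap another gene. Names, exonic lengths and coordinates came from GENCODE M21 (GRCm38), which held 54495 of the IDs. With those lengths, 97.9 to 98.4% of values of 20 reads or fewer were whole reads within 0.02, which gave the depth. The test was limma 3.58.1 (R 4.3.3) on log2(FPKM + 1) with a trended prior and 4 residual degrees of freedom, over the 10970 genes that reached 1 FPKM in 3 or more libraries. Calls had a 2-sided Benjamini-Hochberg adjusted p under 0.05. Log2 changes are on that scale, which understates low genes, and folds are ratios of mean FPKM. Gli2 and Gli1 had exact permutation tests. Read counts are printed beside several of the lowest values. The fit was tested on simulated data, and 19 other settings were tried (another pseudocount, filter, scaling or model, or a library left out).

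The named genes are Gli2, Gli1, Gli3, Ptch1, Smo, Sufu, the sex chromosome and genotype genes, up to 3 members of each of the other lists (called ones first, then those without overlap of the groups), the 10 largest rises and 10 largest falls among calls without overlap, and the 10 genes each way that set library 3 furthest from libraries 1 and 2. The last 2 rules skip predicted and clone-named genes. The 32 lists hold 566 genes. The comparison and the lists were chosen with earlier results of these data known, and lists carry no test of their own. Results for a few genes are not reported here. Length trends were removed per library with loess (span 0.3), chosen after seeing the data. Promoter windows are RefSeq's (GRCm38.p6). Scripts ran under Python 3.11.15 with numpy 2.4.6, pandas 2.3.3, matplotlib 3.10.9 and scipy 1.17.1.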

Additional observations from a re-analysis of the deposited data

How the results depend on the processing

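All 672 called genes kept their direction in every setting in which they were tested, except 2 with the length trend removed and without Cas9-Gli2KO replicate 3. The 196 rises and 476 falls became 76 and 246 with a filter of at least 5 FPKM, 308 and 488 with quantile normalisation, 140 and 389 after rescaling to a common FPKM total (which moved the median of all genes to -0.16), 1338 and 1863 with all 12 libraries in 1 fit, 212 and 429 with voom on recovered reads, 366 and 695 with the length trend removed, 553 and 916 with length and GC trends removed, and 3604 and 3656 with the length trend removed and without Cas9-Gli2KO replicate 3. Leaving out 1 library gave 22 to 3704 rises and 80 to 4060 falls, the high end without Cas9-Gli2KO replicate 3. By at least 2-fold, the 63 rises and 170 falls became 108 rises with a pseudocount of 0.1, 11 and 42 with a pseudocount of 5, 41 rises with no filter, 26 and 92 with the filter of 5 FPKM, 133 rises with 12 libraries, 101 and 274 with voom on recovered reads, 294 and 429 with the length trend removed and without Cas9-Gli2KO replicate 3, and 22 to 555 and 78 to 464 with 1 library left out. The 5 prostaglandin falls became 3 with a pseudocount of 0.1, rescaling, quantile normalisation or voom, 1 with no filter or the filter of 5 FPKM, and 1 to 7 with 1 library left out. The 14 interferon-stimulated falls became 6 with the filter of 5 FPKM, which tests fewer genes, and 4 to 20 with 1 library left out. The Ptch1 log2 change of -0.34 ranged from -0.58 to -0.21 with 1 library left out and was -0.23 with the length trend also removed without Cas9-Gli2KO replicate 3. The Gli1 difference of 0.0304 FPKM ranged from -0.00591 to 0.0589.

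Across genes, deviations from the group mean correlated with r = 0.27, -0.17 and 0.21 between same-numbered libraries 1, 2 and 3. These values cannot decide whether the numbers pair libraries. Deviations within a group of 3 sum to 0, and those of Cas9-Gli2KO mostly set library 3 apart from 1 and 2. With the replicate block 103 genes rose and 252 fell, 179 and 415 with the length trend also removed, and the prostaglandin count was 1, or 3 with both. The planned fit with library weights could not be fitted, since 1 library took nearly all of the weight.

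Signs changed in genes without a call. Gli3 (-0.01) was 0.01 with a pseudocount of 5, 0.00 with quantile normalisation, 0.18 with the length trend removed, with or without the replicate block, 0.17 with length and GC trends removed, and -0.31 to 0.14 with 1 library left out. With length and GC trends removed Sufu was 0.07, mt-Tn -0.01, mt-Ti -0.46, mt-Tc -0.10, Rnu5g -0.14 and Col5a1 0.05. With the length trend removed Braf was 0.08 and mt-Ti -0.01, both also with the replicate block, and without Cas9-Gli2KO replicate 3 as well Kdm5d was 0.13, Eif2s3y 0.05 and Braf 0.10. The transfer RNA mt-Te was 0.10 with a pseudocount of 5 and -1.06 to 0.54 with 1 library left out, when Col5a1 ran from -0.87 to 0.07, Tenm3 from -0.83 to 0.06 and Eif2s3y from -0.32 to 0.00. The cause of these changes was not tested.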
